A study of Mus musculus with 24 samples.

Results

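Bone of female mice at 18 months was compared with bone at 12 months in both genotypes of the study, using 12 of its 24 arrays. The samples were chosen by the age in their titles, which gave 6 arrays at 18 months and 6 at 12 months, each set made of 3 wild-type (WT) and 3 HSD2OB-tg arrays. HSD2OB-tg mice carry a transgene directed to osteoblasts, the cells that build bone, and its product, 11-beta hydroxysteroid dehydrogenase type 2, inactivates glucocorticoids. No drug or diet treatment is given in the labels, and all mice had standard chow. Total RNA came from tibia and femur, and per the labels' protocols the marrow of the tibia was flushed out. The labels speak of triplicates but do not tie an array to an animal, so the p-values cover only how much these samples vary, and part of that may be technical.

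Bone RNA is a mixture of the RNA of osteoblasts, of osteocytes, which osteoblasts become once they are buried in matrix, of osteoclasts, which resorb bone, and of whatever marrow, fat, cartilage, tendon and muscle is collected with them. With age the skeleton of mice is known to lose trabecular bone and to gain marrow fat. Glucocorticoids act through their receptor, a transcription factor that directly switches on genes such as Tsc22d3, Sgk1, Per1 and Fkbp5, and excess glucocorticoid is a known cause of bone loss. In these bulk samples fewer cells of a type and less RNA per cell cannot be told apart.

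The deposited values are on a log2 scale, so a difference of 1 is a change of 2-fold. The median of all rows lay between 3.56 and 3.63 on the 12 arrays, and pairs of these arrays correlated at 0.962 to 0.978 over genes. Col1a1, which encodes the main collagen of bone, lay between 10.83 and 12.49 on every array. Elane, a neutrophil granule protease of marrow, lay between 10.91 and 11.59. The number of arrays limits the precision. The sample codes of the labels begin with HEN513 or HEN679, and the labels do not say what these prefixes mean. All 3 WT arrays at 12 months carry HEN679, while the other 3 groups have 1 array with HEN679 and 2 with HEN513. Age is therefore partly tied to the prefix. This holds in WT bone only, since the transgenic groups of both ages have the same split of prefixes. Any difference between genotypes in the age change is therefore tied to the prefix as well. Within HEN513 the age difference rests on transgenic arrays alone, 2 at each age, and within HEN679 on 4 arrays at 12 months and 2 at 18 months from both genotypes, so the prefix sets also differ in genotype. The median of a list within a prefix is given beside its value over all arrays where its sign turned. The skeletal muscle genes set WT 18-month replicate 1 and WT 12-month replicate 2 apart, with list means of 6.67 and 6.56 against 7.93 to 10.44 on the other 10 arrays.

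Hsd11b2, the gene the transgene carries, checked the labels. It read 3.39, 3.69 and 3.38 in WT bone and 4.40, 4.59 and 4.46 in transgenic bone at 12 months. At 18 months it read 3.59, 3.52 and 3.70 in WT and 4.88, 5.10 and 4.47 in transgenic bone. All transgenic arrays lay above all WT arrays, and the genotype difference over both ages was 1.10 ± 0.12 (SE, limma adjusted p = 0.00961). It was the 1 gene of 22180 called between genotypes (0.00451% of genes), while 959 genes (4.32%) had an unadjusted p under 0.05. The call was lost, with differences of 1.07 to 1.09, without any 1 of WT 12-month replicates 1 and 3, WT 18-month replicate 2, transgenic 12-month replicate 2 and transgenic 18-month replicate 1 (limma adjusted p = 0.0506 to 0.0547). Between the ages Hsd11b2 differed by 0.23 ± 0.12 (SE, limma adjusted p = 0.82).

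For 18 against 12 months, with genotype as a term, no gene of 22180 was called at an adjusted p under 0.05 (0% of genes, limma with Benjamini-Hochberg adjustment, lowest adjusted p = 0.744). At an unadjusted p under 0.05 stood 1271 genes (5.73%), of which 516 (2.33%) were higher and 755 (3.4%) lower at 18 months. All 6 arrays at 18 months lay above all 6 at 12 months for 14 genes (0.0631%), and below them for 44 genes (0.198%). Small differences were the rule, with the 5th percentile at -0.29, the 95th at 0.33 and the median at -0.02. A difference of at least 1 upward was found for 34 genes (0.153%) and of at least 1 downward for 21 (0.0947%). The values below are therefore measurements of single genes and lists, none of which passed over all genes. Apart from Mir181b-1, the genes named for this comparison had limma adjusted p-values from 0.82 upward.

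The lowest p of all 22180 genes belonged to Mir181b-1, a microRNA gene of the miR-181 family, which is known for roles in lymphocyte development and inflammation. It stands outside the rule used to name genes and was chosen after its values were seen. Its RefSeq hairpin (GRCm38.p6) lies on chromosome 1 from 137966639 to 137966718. Both mature products are shown because they identify what the probe set is named for; capitals mark the seed, bases 2 to 8, which pairs with targets.
mmu-miR-181b-5p: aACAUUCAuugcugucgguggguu
mmu-miR-181b-1-3p: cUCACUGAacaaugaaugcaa

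Mir181b-1 read 1.62, 2.65 and 3.45 in WT and 2.68, 3.16 and 4.68 in transgenic bone at 12 months. At 18 months it read 5.22, 6.31 and 4.97 in WT and 5.53, 5.86 and 4.87 in transgenic bone. The ages did not overlap, the medians were 2.92 and 5.37, and the difference was 2.42 ± 0.41 (SE, 95% interval 1.53 to 3.31), or 5.35-fold, with an unadjusted p of 6.01e-05 (limma adjusted p = 0.744). The medians at 3 and 6 months were 5.82 and 5.49, so 12 months had the lowest median of the 4 ages, although its highest array lay above the lowest at 6 months. The difference was 1.44 within HEN513 and 2.73 within HEN679. Mir181b-2, a second gene for the same 5p product on chromosome 2, differed by 0.27 ± 0.29 (SE, limma adjusted p = 0.877). Mir181a-1, the partner of Mir181b-1 in its cluster on chromosome 1 and likewise chosen after its values were seen, read 1.10 to 2.29 at 12 months and 1.34 to 2.15 at 18 months, a difference of 0.19 ± 0.18 (SE, limma adjusted p = 0.862). These are low signals, all under the array medians of 3.56 to 3.63, so a change of Mir181a-1 could have been missed. The array reads RNA of the gene's locus, and whether it measured hairpin, primary transcript or mature microRNA is not given in the sources used here.

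**Figure D1:**
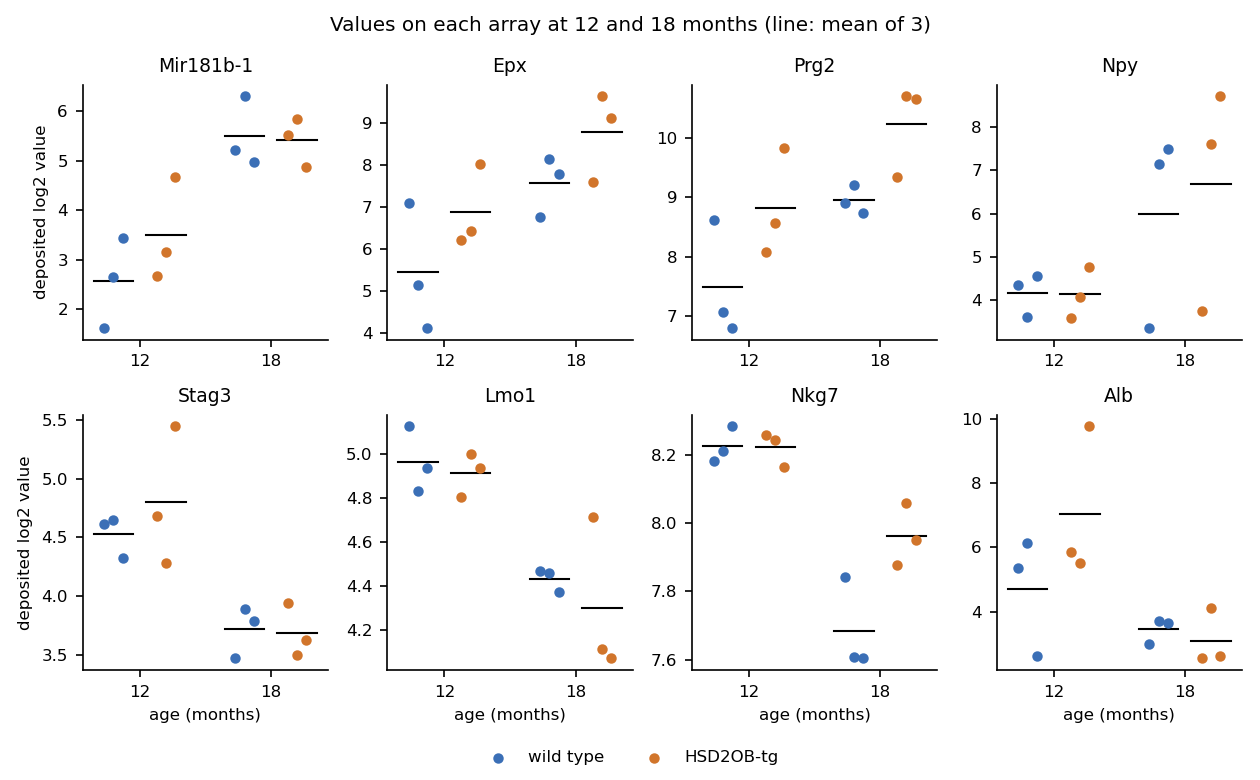
Deposited log2 values (vertical axes, each with its own range) of 8 genes on the 12 arrays, by age in months; blue points are wild type, orange points HSD2OB-tg, and a line is the mean of 3 arrays. Mir181b-1, Stag3, Lmo1 and Nkg7 separate the ages without overlap, whereas Epx, Prg2, Npy and Alb overlap on at least 1 array.

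Granule genes of eosinophils, white cells of allergy and parasite defence that mature in marrow, were among the largest differences upward. Epx, the eosinophil peroxidase (chromosome 11, 87863997 to 87875536), read 7.10, 5.15 and 4.12 in WT and 6.22, 6.43 and 8.04 in transgenic bone at 12 months. At 18 months Epx read 6.77, 8.16 and 7.79 in WT and 7.59, 9.65 and 9.12 in transgenic bone, a difference of 2.00 ± 0.52 (SE, limma adjusted p = 0.82), or 4.01-fold. The ages overlapped, with 3 arrays at 18 months above all at 12 months. Prg2 and its neighbour Prg3 on chromosome 2, which encode the major basic proteins of the granules, differed by 1.43 ± 0.36 and 1.21 ± 0.35 (SE). Ear6, an eosinophil ribonuclease gene, differed by 1.23 and Alox15, a lipoxygenase of eosinophils, by 1.22. Prg3, Ear6 and Alox15 were named after their values were seen.

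The surface receptors of the same cells differed less. Ccr3, the eotaxin receptor, read 5.85 to 6.27 at 12 months and 6.23 to 6.91 at 18 months, with 5 of 6 arrays at 18 months above all at 12 months and a difference of 0.39 ± 0.13 (SE). Siglecf differed by 0.14, and Il5ra, the interleukin 5 receptor, by -0.50, where WT 12-month replicate 3 stood at 7.56 and the other 11 arrays between 2.62 and 4.78. Without that array Il5ra differed by 0.17. Over 10 eosinophil genes listed after these values had been seen, 8 were measured, 7 were higher and their median was 1.21, against -0.02 for all genes. The mean of these 8 genes ran from 4.80 to 6.13 at 12 months and from 5.55 to 7.07 at 18 months, so 2 of 6 arrays at 18 months lay above all at 12 months. At 3 and 6 months its medians were 6.37 and 6.35, above the 5.30 of 12 months and the 5.93 of 18 months. Beyond the age difference, Epx was higher by 1.33 and Prg2 by 1.31 in transgenic than in WT bone over both ages, without being called (limma adjusted p = 0.998 for each).

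Among the other genes of lowest p on the higher side, 2 more separated the ages, where 0.0631% of all genes have every 18-month array higher. This separation too was largely set by the choice. Kazn, which encodes the desmosome-associated protein kazrin, read 3.04 to 3.53 at 12 months (median 3.19) and 3.55 to 3.77 at 18 months (median 3.71), a difference of 0.46 ± 0.10 (SE). Zfp74, a zinc finger gene, read 4.20 to 4.51 and 4.53 to 5.08, a difference of 0.43 ± 0.10 (SE). The overlapping genes chosen by the same rule were Sgsm3 (0.64), Tbc1d32 (0.52), the lysosomal lipid transporter gene Abca5 (0.60), the host RNA Snhg11 (0.81), the mitochondrial ATPase gene Afg1l (0.58) and the secretogranin gene Scg3 (0.57). Scg3 lay under the array medians of 3.56 to 3.63 on all 12 arrays. Sgsm3 and Tbc1d32 both encode proteins with a TBC domain, which is known from regulators of Rab GTPases in vesicle traffic. These 8 genes differed in the same direction in both genotypes, by 0.35 to 0.99 in WT and by 0.23 to 0.69 in transgenic bone. They were chosen by their p over both genotypes together, so this agreement was largely set by the choice.

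On the lower side, 5 of the 10 genes of lowest p that the rule names separated the ages, where 0.198% of all genes have every 18-month array lower. They were chosen by their p on these arrays, so this separation was largely set by the choice. Stag3, a cohesin subunit of meiosis, read 4.28 to 5.45 at 12 months (median 4.63) and 3.47 to 3.94 at 18 months (median 3.71), a difference of -0.97 ± 0.18 (SE), or 1.95-fold lower. The same gene had medians of 5.02 at 3 months and 4.12 at 6 months. Lmo1, a LIM-domain transcription cofactor, read 4.80 to 5.13 at 12 months and 4.07 to 4.71 at 18 months, a difference of -0.57 ± 0.12 (SE). Its medians at 3 and 6 months, 4.19 and 4.18, were near those of 18 months (4.42), so 12 months was the highest of the 4 ages.

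Nkg7, a granule membrane gene of natural killer and cytotoxic T cells, read 8.18, 8.21 and 8.28 in WT and 8.26, 8.24 and 8.16 in transgenic bone at 12 months. It read 7.84, 7.61 and 7.60 in WT and 7.88, 8.06 and 7.95 in transgenic bone at 18 months. The 12-month arrays lay close together, and the difference was -0.40 ± 0.09 (SE), or 1.32-fold lower. Other genes of cytotoxic cells went both ways, with the perforin gene Prf1 at -0.35, where WT 12-month replicate 3 was high at 5.88, and the NK receptor gene Klrb1c, named after its values were seen, at 0.32. Slc29a4, a monoamine transporter, read 2.97 to 3.33 and 2.72 to 2.93, a difference of -0.40 ± 0.09 (SE), all under the array medians of 3.56 to 3.63. Ces3b, a carboxylesterase, read 1.30 to 2.04 and 0.97 to 1.25, a difference of -0.57 ± 0.13 (SE), at the bottom of the scale of these arrays.

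The 5 overlapping genes on the lower side were Trim36 (-0.64), the cardiac troponin I gene Tnni3 (-0.59), the class II chaperone gene H2-Oa (-0.88), Serpina1e (-1.17) and AW011738 (-0.44). H2-Oa read 4.43 to 5.40 at 12 months and 3.54 to 4.03 at 18 months apart from WT replicate 1, which stood at 4.85. Serpina1e, a liver-secreted protease inhibitor, belongs with the genes of the next paragraph.

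Genes that hepatocytes express for secretion into blood made up most of the largest differences downward. Alb, which encodes serum albumin, read 5.37, 6.13 and 2.61 in WT and 5.87, 5.51 and 9.77 in transgenic bone at 12 months. At 18 months Alb read 3.00, 3.70 and 3.64 in WT and 2.54, 4.10 and 2.63 in transgenic bone, a difference of -2.61 ± 0.82 (SE, limma adjusted p = 0.82). One 12-month array, transgenic replicate 3, stood far above the others, and one, WT replicate 3, lay among the 18-month values. The same array was highest and the same lowest at 12 months in Mup3 (-2.40) and Mup20 (-2.26), major urinary protein genes, in Hamp (-2.26), which encodes the iron hormone hepcidin, and in Apoa2 (-1.11). Kap, an androgen-regulated gene of the kidney tubule, differed by -1.92 and was also highest in transgenic replicate 3 at 12 months, at 7.26. These genes other than Serpina1e were chosen after their values were seen.

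A list of 20 hepatocyte genes, also drawn up after these values had been seen, had 20 of 20 lower at 18 months, 11 with an unadjusted p under 0.05 (3.4% of all genes are that and lower) and a median of -0.85. Its mean ran from 2.46 to 5.83 at 12 months, with 5 of 6 arrays above the 2.83 that was the highest at 18 months. At 6 months 3 of 6 arrays lay above that level, and at 3 months none of 6. For 8 kidney tubule genes the mean lay above all 18-month arrays on the same 5 arrays at 12 months, on 3 of 6 at 6 months and on 3 of 6 at 3 months, and 7 of 8 genes were lower with a median of -0.17. Liver and kidney are not part of the labelled tissue, and the part of their RNA in these differences was not tested.

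Npy encodes neuropeptide Y, a transmitter of sympathetic nerves that bone and marrow cells can also make. It read 3.59 to 4.77 at 12 months (median 4.21). At 18 months it read 3.35, 7.15 and 7.49 in WT and 3.74, 7.62 and 8.72 in transgenic bone. The difference was 2.19 ± 0.83 (SE, limma adjusted p = 0.82). Both low arrays at 18 months carry HEN679, and the difference was 3.75 within HEN513 and -0.43 within HEN679. At 3 and 6 months Npy lay between 5.45 and 8.59. Npy was named after its values were seen.

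The study's transgene acts on glucocorticoid signalling, and known target genes of the glucocorticoid receptor were followed as a list. Of 20 measured genes, 19 were higher at 18 months, against 45.9% of all genes. The 7 with an unadjusted p under 0.05 (2.33% of all genes are that and higher) were all higher, none was called, and the list median was 0.40. Ddit4, an inhibitor of mTORC1, differed by 0.84 ± 0.29, Tsc22d3, the anti-inflammatory leucine zipper GILZ, by 0.55 ± 0.15, and Zbtb16, a zinc finger repressor, by 0.54 ± 0.18 (SE). Sgk1, a kinase that regulates ion transport, differed by 0.46 ± 0.13, the clock gene Per1 by 0.45 ± 0.21, Errfi1, a feedback inhibitor of the EGF receptor, by 0.44 ± 0.17, and Klf9, a Krüppel-like factor, by 0.42 ± 0.18 (SE). Fkbp5, a co-chaperone of the receptor often used as a readout of it, differed by 0.07 ± 0.13 (SE, limma adjusted p = 0.931). Errfi1, Klf9 and Fkbp5 were named after their values were seen.

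Sgk1 was the only one of the 20 whose ages did not overlap, where 0.0631% of all genes have every 18-month array higher. It read 5.31, 5.21 and 5.74 in WT and 5.34, 5.73 and 5.69 in transgenic bone at 12 months, and 5.91, 6.07 and 5.98 in WT and 5.75, 6.29 and 5.80 in transgenic bone at 18 months. The gap between the highest array at 12 months and the lowest at 18 months was narrow. Tsc22d3 read 3.71 to 4.51 and 4.20 to 4.79, with 4 arrays at 18 months above all at 12 months. Ddit4 read 4.75 to 5.46 at 12 months, and at 18 months 6.87, 6.64 and 5.17 in WT and 5.52, 6.10 and 5.07 in transgenic bone, so 2 arrays were not high.

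By genotype the median of the glucocorticoid list was 0.56 in WT and 0.19 in transgenic bone. The prefix is uneven between the ages in WT only, so genotype and prefix cannot be told apart here. The difference between genotypes was not called for any of these genes, and for Ddit4 it was -0.77 ± 0.57, for Klf9 -0.56 ± 0.33 and for Zbtb16 -0.55 ± 0.35 (SE, limma adjusted p = 0.999 for each). The list mean at 12 months ran from 6.02 to 6.48 and at 18 months from 6.25 to 6.94, where 4 of 6 arrays lay above all at 12 months. The list median was 0.28 with the prefix as a term, 0.04 within HEN513 and 0.32 within HEN679. Leaving out 1 array moved it between 0.25 (without WT 18-month replicate 2) and 0.47. With the mean of the muscle genes in the fit it was 0.31. Among 10 genes that handle glucocorticoids, from the receptor's chaperones to the steroid dehydrogenases, 8 were higher and the median was 0.05.

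**Figure D2:**
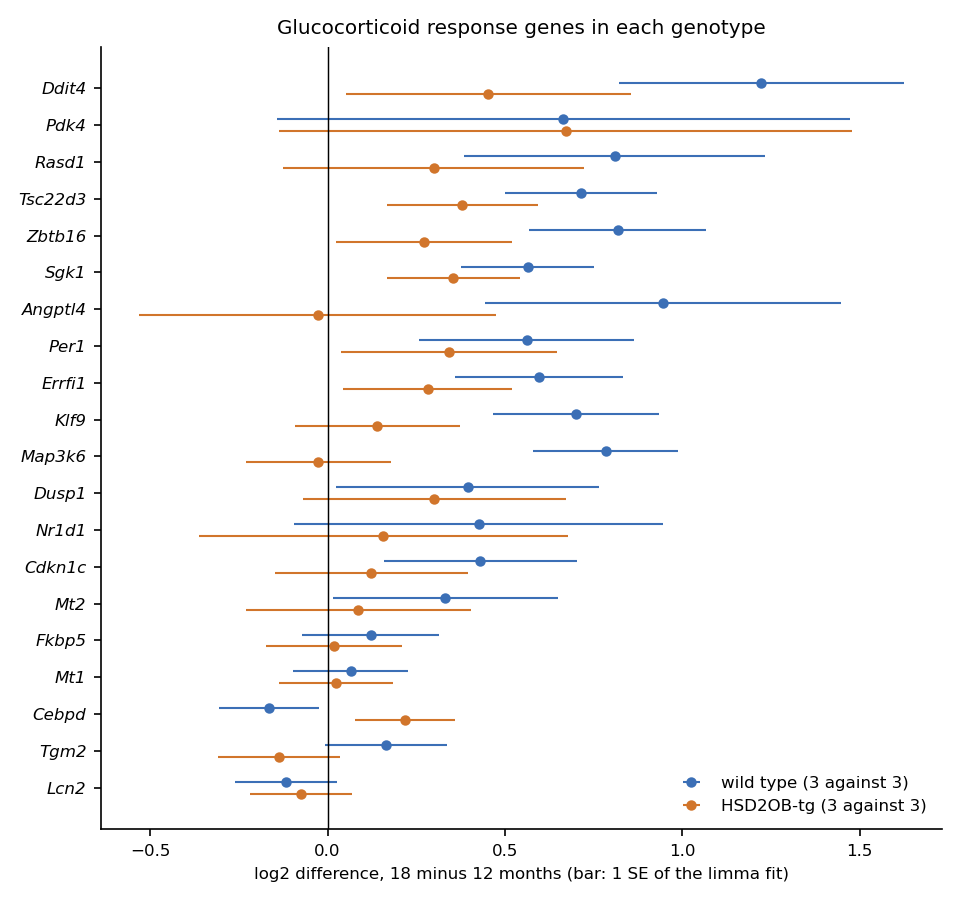
Log2 difference at 18 against 12 months (horizontal axis) for 20 glucocorticoid response genes in wild type (blue) and HSD2OB-tg (orange), with 1 SE of the limma fit. The list medians were 0.56 in wild type and 0.19 in HSD2OB-tg, and no difference between genotypes was called.

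The half-site of the glucocorticoid receptor, AGAACA on either strand, was looked for in the 250 bases before each RefSeq start (GRCm38.p6). Of the 20 genes 14 had such a window, and 2 of them, Sgk1 and Tsc22d3, held the letters, against 18.2% of 27025 genes and 16.1% of 32851 windows. One of the 6 windows of Sgk1 (chr10:21993640-21993889, plus strand) is shown because it held 3 matches, a pair of which face each other with 3 bases between them; capitals mark the matches.
Sgk1: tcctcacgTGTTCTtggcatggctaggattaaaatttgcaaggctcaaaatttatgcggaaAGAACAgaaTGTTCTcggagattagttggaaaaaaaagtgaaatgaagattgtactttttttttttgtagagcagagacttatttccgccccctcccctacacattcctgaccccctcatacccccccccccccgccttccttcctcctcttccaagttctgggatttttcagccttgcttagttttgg

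Clock genes, which share members with the glucocorticoid list, lay higher by smaller steps. Of 17 measured, 16 were higher (45.9% of all genes) with a median of 0.18, which was -0.05 within HEN513. The 3 with an unadjusted p under 0.05 (2.33% of all genes are that and higher) were Per1, the repressor gene Bhlhe40 (0.34) and Nr1d2 (0.36), which encodes REV-ERB beta. The E-box CACGTG, bound by the clock's activators, was in a window of 5 of the 16 genes that had one, against 6.86% of all genes. The time of day at which mice were killed is not given in the sources used here. Immediate early genes, which respond within minutes to many stimuli, had 11 of 16 higher (45.9% of all genes), 4 of them with an unadjusted p under 0.05 (2.33% of all genes), and a median of 0.21.

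Nr4a3, an orphan nuclear receptor gene, was the immediate early gene that differed most. It read 3.55 to 4.38 at 12 months, and 3.47, 5.74 and 5.46 in WT and 4.60, 5.79 and 5.50 in transgenic bone at 18 months. The difference was 1.23 ± 0.35 (SE), with 5 of 6 arrays at 18 months above all at 12 months. At 3 and 6 months its medians were 3.79 and 4.09, so 18 months was the highest age. Its relative Nr4a1 differed by 0.93 ± 0.37 (SE). Within HEN679 both were near their 12-month level, at 0.14 and 0.06, and within HEN513 they differed by 1.62 and 0.80.

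Interferon response genes, which cells switch on against viruses, lay lower at 18 months. Of 16 measured, 13 were lower against 54.1% of all genes, 4 had an unadjusted p under 0.05, all of them lower (3.4% of all genes are that), and the median was -0.39. Bst2, the virus tether tetherin, read 4.08, 6.68 and 6.50 in WT and 5.43, 5.62 and 5.10 in transgenic bone at 12 months. At 18 months Bst2 read 4.92, 4.79 and 4.69 in WT and 4.79, 4.57 and 4.26 in transgenic bone, a difference of -0.90 ± 0.35 (SE). WT 12-month replicate 1 was the exception, lying below all arrays at 18 months. Bst2 was named after its values were seen.

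Gbp3, a guanylate-binding protein gene, differed by -0.84 ± 0.32, and Stat2, a transcription factor of the type I interferon pathway, by -0.52 ± 0.19 (SE). Gbp3 stood at 6.46 and 5.67 on WT 12-month replicates 2 and 3, and between 3.96 and 4.79 on all other arrays. Within HEN513 the list median was 0.016, and within HEN679 it was -0.58. Without WT 12-month replicate 2 the list median was -0.13, and without WT 12-month replicate 1 it was -0.60. Within WT, leaving out that first replicate gave the only calls for age in any fit, Gbp5 with -2.03 (limma adjusted p = 0.00958) and Bst2 with -1.79 (adjusted p = 0.0325). With all 3 replicates these differences were -1.20 and -0.95 (limma adjusted p = 0.86 for each).

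The interferon-stimulated response element, which is GAAA, any 2 bases and GAAA again on either strand, was in a window of 7 of the 12 listed genes that had one, against 3.46% of all genes and 2.98% of all windows. The windows of Stat2 (chr10:128270248-128270497, plus strand, 1 match) and Gbp3 (chr3:142559794-142560043, plus strand, 2 overlapping matches) are shown as examples, with the matches in capitals as they read on the plus strand.
Stat2: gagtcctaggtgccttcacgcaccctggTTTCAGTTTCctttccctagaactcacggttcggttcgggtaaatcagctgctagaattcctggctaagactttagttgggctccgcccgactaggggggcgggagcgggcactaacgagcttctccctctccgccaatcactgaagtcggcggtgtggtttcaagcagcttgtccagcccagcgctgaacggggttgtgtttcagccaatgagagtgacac
Gbp3: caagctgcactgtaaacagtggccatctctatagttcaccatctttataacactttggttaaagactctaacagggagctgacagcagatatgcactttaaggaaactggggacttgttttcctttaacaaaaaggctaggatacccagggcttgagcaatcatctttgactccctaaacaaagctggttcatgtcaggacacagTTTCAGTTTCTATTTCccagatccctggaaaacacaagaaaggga

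All 12 measured antigen presentation genes were lower at 18 months, 3 of them with an unadjusted p under 0.05 (3.4% of all genes are that and lower), with a median of -0.33. That median was 0.022 within HEN679 and -0.50 within HEN513, and -0.50 without WT 12-month replicate 1. H2-Eb1, a class II beta chain gene, read 4.11, 6.79 and 7.39 in WT and 7.89, 6.36 and 7.27 in transgenic bone at 12 months. At 18 months it read 6.45, 4.03 and 6.69 in WT and 4.89, 4.04 and 4.91 in transgenic bone, a difference of -1.47 ± 0.65 (SE). The values split into a high and a low range at both ages, and the difference was -0.37 in WT and -2.56 in transgenic bone, a difference between genotypes of -2.18 ± 1.20 (SE, limma adjusted p = 0.999). The class II chain genes H2-Aa and H2-Ab1, named after their values were seen, differed less, by -0.30 and -0.19 (limma adjusted p = 0.833 and 0.911). Tap2, a subunit of the peptide transporter, differed by -0.46 ± 0.18 (SE). In the B cell list 9 of 12 genes were lower, with a median of -0.13, led by the B cell receptor inhibitor Cd22 (-0.78) and by Ms4a1, which encodes CD20 (-0.58). The B cell median was 0.25 in WT and -0.52 in transgenic bone, 0.26 within HEN679, and 0.0052 without transgenic 18-month replicate 3.

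T and natural killer cell genes had 9 of 13 lower, Nkg7 among them, and a median of -0.22, which was -0.046 without WT 12-month replicate 3. Plasma cell genes had 9 of 11 higher, with a median of 0.17 that ran from 0.059 without transgenic 18-month replicate 3 to 0.33 without WT 12-month replicate 3. Jchain, the joining chain of secreted antibodies, differed by 0.79 ± 0.47 (SE), and WT 12-month replicate 3 stood at 6.28 where the other 11 arrays lay between 8.67 and 10.26. Iglv1, a lambda light chain gene, differed by 0.85 ± 0.49 (SE). In the chemokine list 13 of 17 genes were lower (54.1% of all genes), with a median of -0.04 that was 0.075 within HEN513. Of the 3 with an unadjusted p under 0.05 (5.73% of all genes), 2 were higher and 1 lower. Ptgs2, the inducible cyclooxygenase, differed by 0.63 ± 0.21 and the chemokine gene Ccl6 by 0.35 ± 0.13 (SE). The lower one, Ccl4, which is outside the naming rule, differed by -0.40. Ptgs2 read only 1.84 to 3.56 on these arrays.

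**Figure D3:**
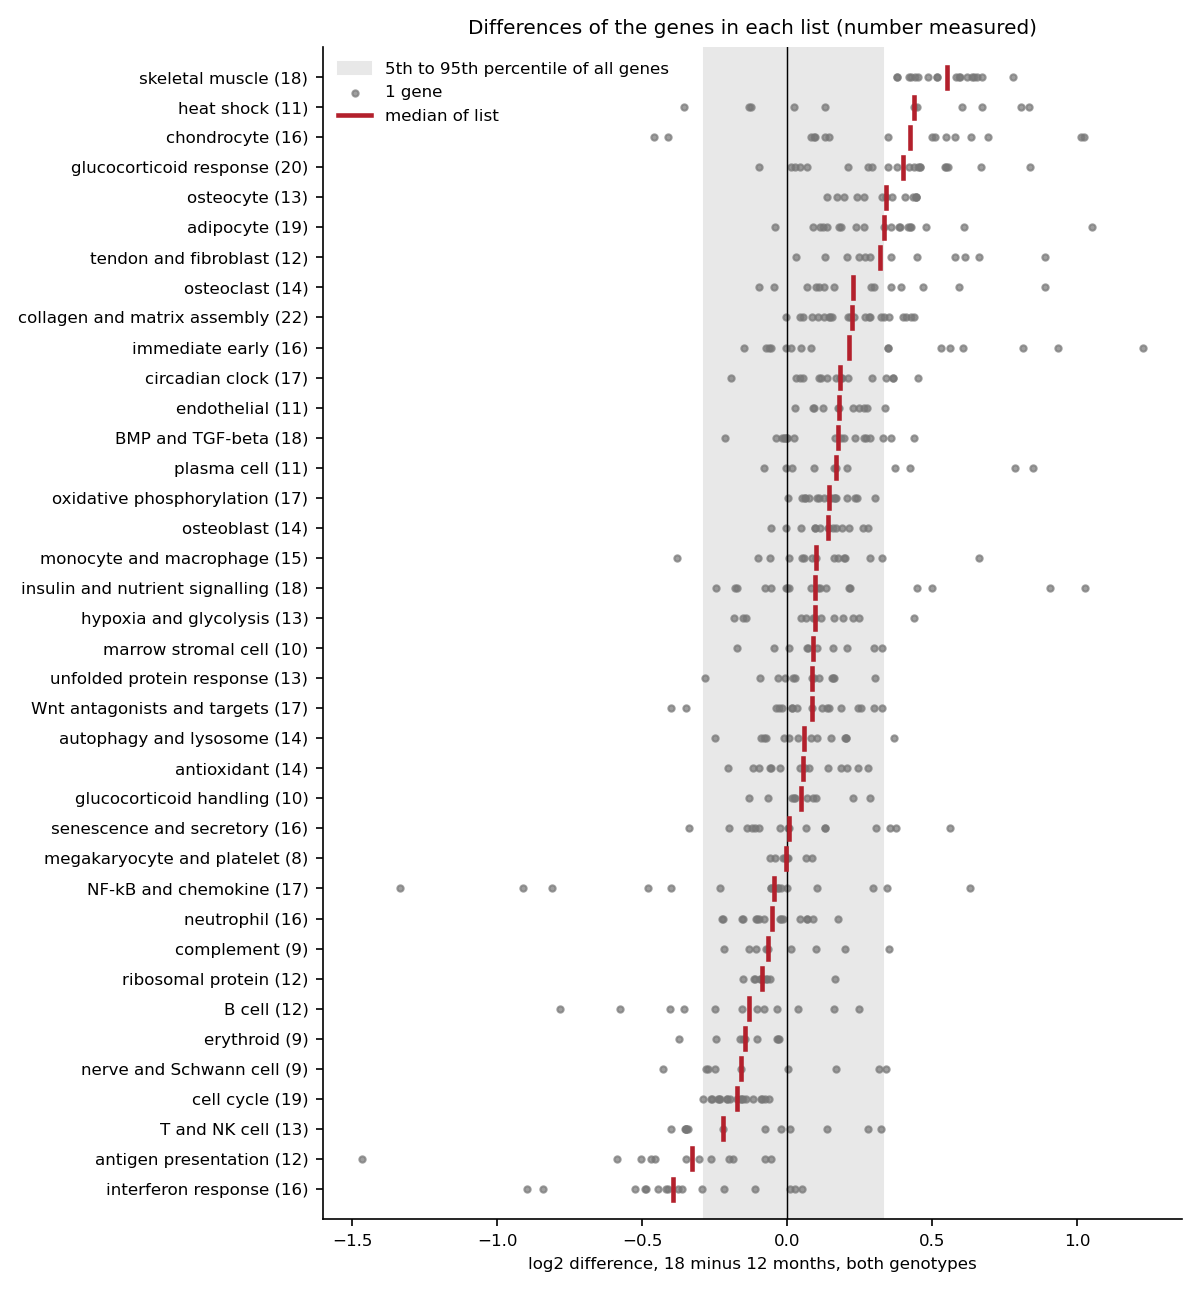
Log2 difference at 18 against 12 months (horizontal axis) of each measured gene in 38 lists (vertical axis, number measured in brackets), with red bars at list medians and a grey band from the 5th to the 95th percentile of all genes. The median is highest for skeletal muscle (0.55) and lowest for interferon response (-0.39).

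Markers of bone cells were level or slightly higher at 18 months, and none was called. All 13 osteocyte genes were higher, with a median of 0.34 and 1 at an unadjusted p under 0.05 (2.33% of all genes are that and higher), Fam20c, a kinase that phosphorylates matrix proteins (0.41 ± 0.19, SE). The mineralization regulators Mepe and Dmp1 differed by 0.44 ± 0.24 and 0.43 ± 0.28, and Sost, the Wnt inhibitor sclerostin, by 0.34 ± 0.26 (SE). Dmp1 and Sost were named after their values were seen. Dmp1 read 7.36 to 8.24 at 12 months and 7.15 to 8.88 at 18 months, and transgenic replicate 3 was the lowest array at 18 months. Osteoblast genes had 12 of 14 higher with a median of 0.14, among them Alpl, the alkaline phosphatase of mineralization (0.19 ± 0.30), and the homeobox gene Dlx3 (0.26 ± 0.23, SE).

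Osteoclast genes had 12 of 14 higher with a median of 0.23. Atp6v0d2, a proton pump subunit needed for cell fusion, read 6.82 to 7.90 at 12 months and 7.52 to 8.85 at 18 months, a difference of 0.59 ± 0.23 (SE). Dcstamp, the fusion receptor, differed by 0.89 ± 0.48 (SE). These 3 lists differed in sign between the prefix sets, of which HEN513 holds the age difference of transgenic bone only. Within HEN513 the medians of osteoblast, osteocyte and osteoclast genes were -0.33, -0.17 and -0.11, and within HEN679 they were 0.66, 0.71 and 0.83. In the HEN679 set transgenic 18-month replicate 1 was the highest of the 12 arrays in Alpl, Dmp1 and Atp6v0d2. Without that array the osteoblast median was -0.03.

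Collagen and matrix assembly genes had 21 of 22 higher with a median of 0.22, which was -0.031 within HEN513 and 0.44 without transgenic 18-month replicate 3. The members with an unadjusted p under 0.05 were P4ha1, a prolyl hydroxylase subunit (0.35 ± 0.15), and Plod1, a lysyl hydroxylase (0.29 ± 0.13, SE), both of which modify collagen chains. Cartilage genes had 14 of 16 higher with a median of 0.42, 0.01 in WT and 0.60 in transgenic bone. The cartilage median was 0.021 without transgenic 18-month replicate 2, and -0.09 within HEN679. Ihh, the signal of hypertrophic cartilage, went the other way without overlap (0.198% of all genes have every 18-month array lower), from 3.02 to 3.65 at 12 months to between 2.53 and 2.98 at 18 months, a difference of -0.46 ± 0.13 (SE). Its values lay around or under the array medians of 3.56 to 3.63. Col10a1, the collagen of hypertrophic cartilage, differed by 1.01 ± 0.61 (SE) and by 0.35 without transgenic 18-month replicate 2, which stood at 7.56.

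Fat cell genes had 18 of 19 higher with a median of 0.33, 0.62 in WT and 0.01 in transgenic bone. Lep, which encodes leptin, read 1.495 to 3.16 at 12 months, and 2.22, 4.72 and 4.68 in WT and 3.35, 2.12 and 2.00 in transgenic bone at 18 months. The difference was 1.05 ± 0.51 (SE), from low signals. Plin4, a lipid droplet protein, differed by 0.61 ± 0.36 and Dgat2, an enzyme of triglyceride synthesis, by 0.36 ± 0.18 (SE). The adipocyte list mean ran from 6.44 to 7.39 at 12 months and from 6.41 to 7.82 at 18 months, so the lowest arrays of both ages were level. The list median was -0.44 within HEN513, 0.27 within HEN679, and 0.13 without WT 18-month replicate 2. The difference between genotypes was not called for any gene of the list.

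Muscle genes lay higher together, with 18 of 18 higher, a median of 0.55 and none at an unadjusted p under 0.05. The mean of these genes ran from 6.56 to 9.97 at 12 months and from 6.67 to 10.44 at 18 months. Ryr1, the calcium release channel of skeletal muscle, differed by 0.78 ± 0.82 and Actn3, an actinin of fast fibres, by 0.67 ± 0.71 (SE). The list median became -0.05 with the prefix as a term, -0.86 within HEN679, 0.10 without WT 12-month replicate 2 and 1.11 without WT 18-month replicate 1. Oxidative phosphorylation genes, in which muscle is rich, had 17 of 17 higher and a median of 0.15. That median was 0.03 with the prefix as a term and -0.23 within HEN679. With the muscle mean as a covariate it was 0.04, with 13 of 17 higher. Ppargc1a, a coactivator of mitochondrial genes, differed by 1.03 ± 0.56 (SE) and by 0.63 with the muscle mean as a covariate. The part of muscle RNA in these differences was not tested beyond these values.

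Tendon genes had 12 of 12 higher with a median of 0.32, from 0.14 without WT 12-month replicate 2 to 0.66 without WT 18-month replicate 1, and the tendon transcription factor genes Mkx and Scx differed by 0.61 ± 0.24 and 0.58 ± 0.29 (SE). In the marrow stromal list, with 8 of 10 higher and a median of 0.09 that was -0.31 within HEN513, Vcam1, an adhesion molecule, differed by 0.33 ± 0.14 and Kitl, the stem cell factor gene, by 0.30 ± 0.13 (SE). Heat shock genes had 8 of 11 higher with a median of 0.44, which was -0.23 within HEN679 and 0.14 without WT 18-month replicate 2, and Hsph1 was the one with an unadjusted p under 0.05 (0.45 ± 0.20, SE). In the insulin and nutrient list, with a median of 0.09 that was -0.024 within HEN513, Irs1, an adaptor of the insulin receptor, differed by 0.50 ± 0.23 (SE).

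**Figure D4:**
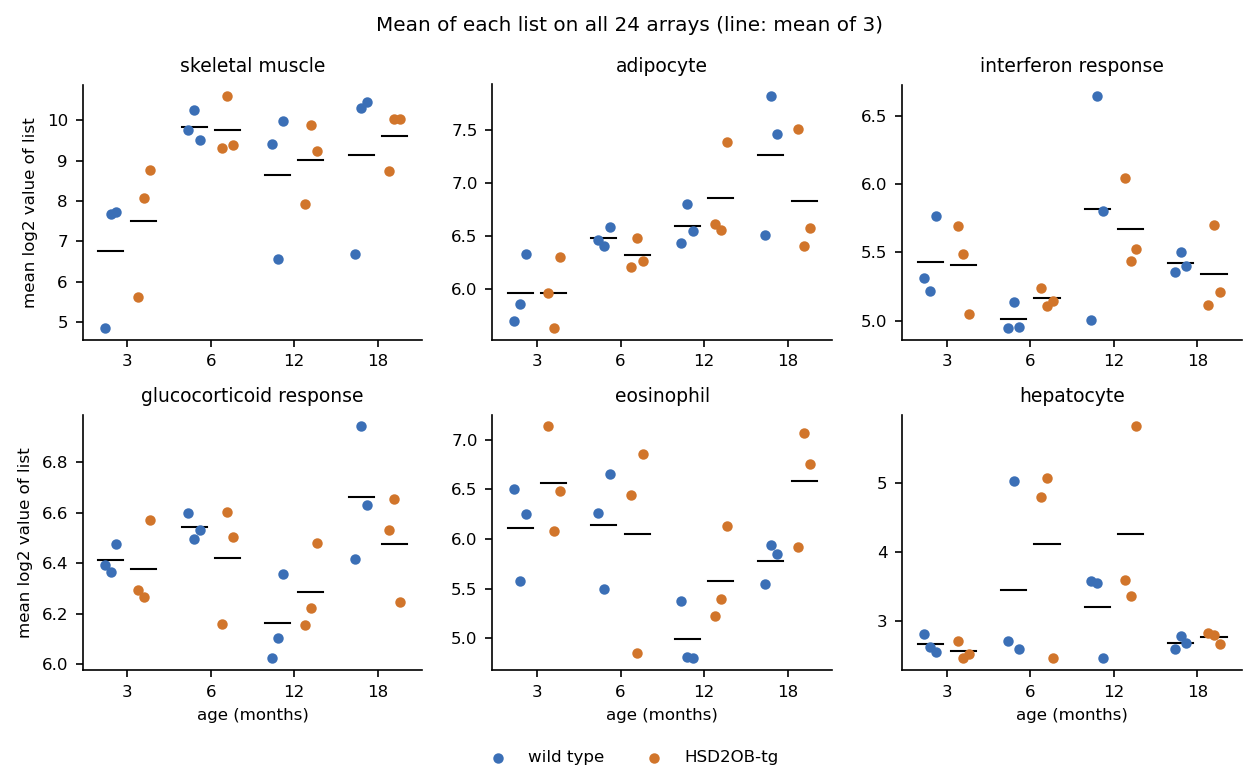
Mean log2 value of 6 lists (vertical axes, each with its own range) on all 24 arrays by age in months; blue points are wild type, orange points HSD2OB-tg, and a line is the mean of 3 arrays. In each genotype the mean of the eosinophil list is lowest and that of the interferon list highest at 12 months, and the hepatocyte list is above 2.83 on 5 of 6 arrays at 12 months and on none at 18 months.

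Genes of cell division were lower at 18 months in small steps. All 19 measured cell cycle genes were lower, with a median of -0.17 and 2 at an unadjusted p under 0.05 (3.4% of all genes are that and lower). The median was 0.046 within HEN513, -0.078 without WT 12-month replicate 2 and -0.058 without both arrays lowest in muscle genes. Aurkb, a mitotic kinase, differed by -0.29 ± 0.12 and Mcm6, a subunit of the replicative helicase, by -0.26 ± 0.11 (SE). All 9 erythroid genes were lower over all arrays, with a median of -0.15. This direction rested on 1 array, since without WT 12-month replicate 2 the erythroid median was 0.037, without both arrays lowest in muscle genes it was 0.085 with 7 of 9 higher, and within HEN513 it was 0.068. Of 12 ribosomal protein genes 11 were lower, with a median of -0.09 that was 0.058 within HEN513. The senescence list had a median of 0.0054, which was -0.10 within HEN679. In that list the nuclear lamin gene Lmnb1 differed by -0.34 ± 0.14 and the cell cycle inhibitor gene Cdkn1a by 0.37 ± 0.18 (SE).

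Whether the 2 genotypes differed in their change from 12 to 18 months was tested as an interaction, and no gene was called (0% of 22180, limma, lowest adjusted p = 0.999), with 666 (3%) at an unadjusted p under 0.05. This test is tied to the prefix too, which is uneven between the ages in WT only. Of the 6 genes of lowest p named here, Mtfr2 read 6.16 to 6.95 and the others no higher than 3.60. Htr1a, a serotonin receptor gene, differed between the ages by 0.63 in WT and by -0.49 in transgenic bone, an interaction of -1.12 ± 0.22 (SE). Ube2dnl2 (-1.15 ± 0.27) and Susd4 (-0.98 ± 0.22) had the same sign. Vrtn (1.00 ± 0.23), Sry (0.91 ± 0.21) and Mtfr2 (0.81 ± 0.20) had the opposite sign. Sry, the male-determining gene of the Y chromosome, read 2.49 to 3.60 in these female bones, around or under the array medians of 3.56 to 3.63.

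Within WT bone no gene was called for age (limma, lowest adjusted p = 0.86), with 1209 genes (5.45%) at an unadjusted p under 0.05. Hecw2 (0.71 ± 0.13), Ube2dnl2 (0.96 ± 0.19) and the water channel gene Aqp12 (0.80 ± 0.16) led upward. Nkg7 (-0.54 ± 0.12), Trim30e-ps1 (-0.91 ± 0.20) and the oxytocin receptor gene Oxtr (-0.81 ± 0.18) led downward. Within transgenic bone none was called either (limma, lowest adjusted p = 0.9997), with 736 genes (3.32%) at an unadjusted p under 0.05. Zfp119b (0.79 ± 0.20), Abhd10 (0.52 ± 0.12) and Cabp2 (0.55 ± 0.14) led upward, and Serpina1e (-1.75 ± 0.34), the desmosome gene Dsp (-0.89 ± 0.19) and the interferon lambda gene Ifnl2 (-0.84 ± 0.16, SE) led downward. Dsp read 3.71, 3.95 and 3.93 in transgenic bone at 12 months and 2.39 to 3.20 on the other 9 arrays. Ube2dnl2, Aqp12, Trim30e-ps1, Oxtr and Cabp2 lay under the array medians of 3.56 to 3.63 on all 12 arrays.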

How the data were processed

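RNA of 12 bone samples was read on Affymetrix Mouse Gene 2.1 ST arrays, and the deposited log2 values, 1 column per array, were used as they stand. The submitters' processing notes list MAS5 alone, without a version. How background, probe summary and scaling were handled is not given in the sources used here, and the log base was inferred from values of 0.09 to 13.7. Of 41034 rows, 23521 had 1 gene symbol, 1814 several and 15699 none; 23328 matched RefSeq (GRCm38.p6) by Entrez number. Where a gene had several rows (1082 genes), its brightest row on average was kept, which left 22180 genes with no filter on signal.

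Tests used limma 3.58.1 under R 4.3.3 (lmFit and eBayes on the deposited log2 values, 2-sided, Benjamini-Hochberg over 22180 genes, called at adjusted p under 0.05), with terms for age and genotype on 12 arrays. The fit had 9 residual degrees of freedom and was tested on simulated data. Interaction and single-genotype contrasts came from 1 term per group. Genes were named as the 10 of lowest p in each direction where none was called. The 2 of lowest p per list were added, as were 3 per direction for the other contrasts. Osteoblast, osteocyte, osteoclast, adipocyte, muscle, plasma cell, clock and both glucocorticoid lists gave 2 more each. Predicted genes, small RNAs, odorant receptors and single immunoglobulin segments were left out. Exceptions are marked, apart from Col1a1, Mir181b-2 and Gbp5, which were also named after their values were seen. Lists and members were chosen with earlier results of these data known, so list counts are descriptions. Alternatives were other normalization, centring, rows, filter, variance model, array weights, prefix, 24 arrays, replicate block, muscle covariate and leaving out each array.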

Additional observations from a re-analysis of the deposited data

Results flagged for a closer look

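A single array stood far from the other 5 of its age (a gap to the next array that takes up more of the whole range than Dixon's limit for 6 values) in 14 of 212 sets, which is 2 ages for each of 106 named genes; chance alone gives about 1 in 20. At 12 months WT replicate 3 was high in Scg3 (2.70, next array 1.97), Prf1 (5.88, next 4.88) and Klrb1c (3.20, next 2.63) and low in Jchain (6.28, next 8.67). Transgenic replicate 3 at 12 months was high in Stag3 (5.45, next 4.69) and Kitl (7.48, next 7.13), and transgenic replicate 2 in Ube2dnl2 (1.68, next 1.35). Also at 12 months, WT replicate 1 was low in Errfi1 (5.46, next 6.10) and WT replicate 2 in Cdkn1a (7.23, next 7.61). At 18 months WT replicate 1 was high in H2-Oa (4.85, next 4.03) and low in Apoa2 (3.06, next 3.65). Transgenic replicate 3 at 18 months was high in Mup20 (2.51, next 1.56) and low in Aurkb (7.39, next 7.78), and transgenic replicate 2 was high in Col10a1 (7.56, next 4.52).

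For 4 genes the arrays of the 2 ages did not overlap in either genotype, and the age difference had opposite signs in the genotypes. The transgenic change minus the WT change was 1.00 for Vrtn, 0.91 for Sry, 0.81 for Mtfr2 and -1.12 for Htr1a. The interaction was tested, and its limma adjusted p was 0.999 for each. These 4 were named for their low interaction p, so this separation was largely set by the choice. The share of all genes with such a pattern was not counted. Vrtn and Htr1a lay under the array medians of 3.56 to 3.63 on all 12 arrays.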

How the results depend on the processing

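The count of genes called for 18 against 12 months was 0 under every alternative run, with 908 to 1894 genes at an unadjusted p under 0.05 when 1 array was left out (lowest without WT 18-month replicate 2, highest without WT 18-month replicate 1) and 2234 of the larger set when every row was tested. The counts for the interaction and for transgenic bone were also 0 throughout, and the count for WT was 0 to 2, the 2 arising without WT 12-month replicate 1. Hsd11b2 between genotypes ran from 1.03 to 1.17 leaving out 1 array, and lost its call without any 1 of WT 12-month replicates 1 and 3, WT 18-month replicate 2, transgenic 12-month replicate 2 and transgenic 18-month replicate 1 (limma adjusted p = 0.0506 to 0.0547). It also lost it within HEN513 (1.17), within HEN679 (1.07), with replicate block and prefix together (1.17) and, in an alternative chosen after seeing the data, without both arrays lowest in muscle RNA (1.15). The fits within a prefix hold fewer arrays, and the cause of the lost calls was not tested. Same-numbered samples did not all deviate together (correlations of -0.327 to 0.346, median 0.03 over 18 pairs, against -0.02 for 36 pairs of different number), although the 3 such pairs of the genotypes at 18 months did (0.13 to 0.291). With the replicate block 0 genes were called and 1294 had an unadjusted p under 0.05. Of 2906 values of named genes under alternatives, 2881 kept their direction and 25 reversed, none of them called. Within HEN513 the reversed differences were those of Mir181b-2 (-0.76), Il5ra (0.60), Nr1d2 (-0.022), Mepe (-0.12), Dmp1 (-0.025), Sost (-0.21), Alpl (-0.23), Dlx3 (-0.22), Lep (-0.31), Plin4 (-0.34), Dgat2 (-0.089), Vcam1 (-0.010), Kitl (-0.015), Jchain (-0.39), Iglv1 (-0.10), Mcm6 (0.014) and Irs1 (-0.15). Within HEN679 they were Npy (-0.43), Ryr1 (-0.86), Actn3 (-0.88) and Hsph1 (-0.22). Il5ra was also 0.55 with replicate block and prefix and ran from -0.93 to 0.17 leaving out 1 array. Fkbp5 ran from -0.027 to 0.13 leaving out 1 array and was -0.018 without both arrays lowest in muscle RNA. The WT change and the interaction within HEN513 were not run, since no WT array at 12 months carries that prefix. Signal over background could not be judged, since no detection calls were used.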

Other observations

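Some genes outside the naming rule were picked after their values were seen. Chemokine genes that interferon induces were lower at 18 months, with Ccl8 at -1.34, Cxcl9 at -0.91 and Cxcl10 at -0.81, none of them at an unadjusted p under 0.05. Among the 34 genes higher by at least 1 were Ankrd1, a stretch-response gene of the sarcomere (1.54), and Mstn, the muscle growth inhibitor myostatin (1.26), with limma adjusted p = 0.82 for each. The muscle list had a median of 0.55, which was -0.86 within HEN679. A fit with the muscle mean as a covariate also covered Ankrd1 and Mstn, and its values for them are not given here. The part of muscle RNA in both was not tested beyond that fit. The inducible chaperone genes Hspa1a and Hspb8 differed by 0.83 and 0.81. Among Schwann cell genes, the lineage factor Sox10 differed by -0.43 and Pou3f1 by -0.28, while S100b differed by 0.34. The 9 genes of that list had a median of -0.16, which was 0.022 within HEN679.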
